A study of Homo sapiens with 25 samples.

Results

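Oxidative phosphorylation is carried out by 5 protein complexes of the mitochondrial inner membrane, and the genes examined here encode their subunits. They were taken by symbol from the Ensembl identifiers of the count files: protein-coding genes named NDUFA, NDUFB, NDUFC, NDUFS or NDUFV with a number, SDHA to SDHD, UQCR, COX4 to COX8, ATP5 or MT-. This gave 100 of 58302 genes, 87 in the nuclear genome and 13 in the mitochondrial genome. Complex I had 36 nuclear and 7 mitochondrial genes, complex II 4 nuclear genes, complex III 9 nuclear and 1 mitochondrial, complex IV 18 nuclear and 3 mitochondrial, and complex V 20 nuclear and 2 mitochondrial. NDUFA4, a subunit of cytochrome c oxidase in spite of its name, was placed in complex IV. A further 143 symbols fitted the name pattern but were not protein coding, and were left out.

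Complexes I to IV pass electrons from NADH and succinate to oxygen and pump protons, except complex II, which pumps none. Complex V, the ATP synthase, uses the proton gradient to make ATP. The mitochondrial genome encodes core membrane subunits of complexes I, III, IV and V and is transcribed by its own polymerase, whereas the remaining subunits are nuclear genes whose products are imported. In cultured fibroblasts both genomes have to be expressed together for the complexes to assemble, while glycolysis can supply much of the ATP.

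The libraries came from hiF-T cells, a line made from BJ human skin fibroblasts that carries an inducible hTERT gene, the catalytic subunit of telomerase. Every library has the genotype label WT. All compared groups are of this line and so share the inducible hTERT. The sort set held 20 libraries, with 4 biological replicates each of ungated cells and of cells gated as low, midlow, midhigh and high for dye accumulation. The design text describes these cells as sorted by proliferation status. The labels do not state which dye was used or which dye level marks slow division. The drug set held 5 libraries: 2 replicates of LSD1 inhibition, 1 of DOT1L inhibition, 1 of DMSO and 1 of no drug, where LSD1 is a histone demethylase and DOT1L a histone H3 lysine methyltransferase. The compounds, doses and exposure times are not given in the sources used here. One line was studied throughout, and the p-values measure the spread between libraries labelled as biological replicates of it.

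Each library held between 15015039 and 20030093 counts assigned to genes. Of 13 fibroblast markers, 12 had a median over 1 CPM, its count scaled to the size of the library, in the sort set, the exception being THY1 at 0.452 CPM. None of 5 blood, 6 melanocyte or Schwann, or 6 striated or cardiac muscle markers had a median over 1 CPM, and SOX10 had no count in any of these libraries. Of 7 epithelial markers 2 were over 1 CPM, KRT18 at 181.6 CPM and KRT8 at 38.7 CPM, while KRT5 and KRT1 had a median of 0. Of 5 endothelial markers 2 were over 1 CPM, TEK at 79.5 CPM and KDR at 1.14 CPM, and of 5 pluripotent markers 2, SOX2 at 3.00 CPM and POU5F1 at 2.35 CPM. The 22 S phase genes that were listed summed to 1566 ± 499.9 CPM in high dye cells and 2917 ± 189 CPM in low dye cells (SD, n = 4 each). The 14 G2 and mitosis genes summed to 2210 ± 799.8 CPM in high dye cells and 3465 ± 288 CPM in low dye cells. The 13 fibroblast markers summed to 26750 ± 3381 CPM in high dye cells and 20120 ± 1047 CPM in low dye cells, without overlap. By their medians, most of this sum came from FN1 (13860 CPM), COL1A1 (3328), COL1A2 (3201), VIM (2334) and COL6A1 (1575). It therefore does not stand for all 13 markers. The epithelial sums overlapped, at 132 to 334 CPM in high dye and 128 to 311 CPM in low dye cells, as did the endothelial ones, at 76.6 to 96.3 CPM in high dye and 65.5 to 98.4 CPM in low dye cells. The cell cycle and fibroblast sums thus moved with the gate in every comparison of high with low dye cells below, and their part in those results was not tested. In bulk libraries, fewer cells of a type and less RNA per cell cannot be told apart.

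Mitochondrial mRNAs stood far above the nuclear ones. Per kilobase of the transcript that no other gene shares, the mean level over the sort set was 3361 CPM for MT-CO1 and 3109 CPM for MT-CO2, the catalytic core subunits of complex IV. MT-ATP6, part of the proton channel of the ATP synthase, averaged 2777 CPM per kilobase. MT-ND6, the one protein-coding gene on the opposite strand, was the lowest of the 13 at 747 CPM per kilobase. The library kit does not keep the strand, so this value can include reads of the other strand. Most mitochondrial mRNAs carry short poly(A) tails, and that of MT-ND6 is known to lack one. The highest nuclear gene on this scale was ATP5F1B, the catalytic beta subunit of the ATP synthase, at 331 CPM per kilobase, followed by COX4I1 at 213 and ATP5MK at 172. All 13 mitochondrial genes therefore lay above all nuclear ones in counts per length, with the strand limit for MT-ND6. ATP5MF-PTCD1, which has no unshared sequence, was left aside.

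Where complex IV has tissue-specific paralogs, the ubiquitous form carried nearly all counts, with the limit of shared exons given below for COX6A2 and COX6B2. COX4I1 had 64373 counts over the 25 libraries and COX4I2, the lung and hypoxia form, 1. COX6A1 had 5127 and COX6A2, the heart and muscle form, 0, which allows up to 0.00712 CPM over all libraries (3 counts of the total, counting error only). COX7A2 had 34309 counts and COX7A1, also a heart and muscle form, 49. COX6B1 had 21995 and the testis form COX6B2 21, COX7B had 17691 and COX7B2 1, and COX8A had 7858 and COX8C 3. These 6 low paralogs, ATP5MGL (82 counts), the readthrough gene ATP5MF-PTCD1 (4 counts) and NDUFA7 (105 counts) did not pass the low-count filter of the sort comparison. That left 91 tested genes, 78 nuclear and 13 mitochondrial.

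Exon sharing limits several of the values. The counting program leaves out a read that fits more than 1 gene, and 78.7% of the NDUFA7 transcript lies in exons of another annotated gene, as do 97.9% of COX6B2, all of ATP5MF-PTCD1 and a smaller part of COX6A2. The low counts of NDUFA7, COX6B2 and ATP5MF-PTCD1 cannot be read as their mRNA levels. Among the 78 tested nuclear genes 10 shared over 40% of their transcript with another gene in this way, among them NDUFV2 with 82.9% shared and a mean of 1.53 CPM, NDUFB8 with 71.7%, ATP5PO with 70.3% and NDUFA1 with 44.5%. NDUFV2 is a core subunit that no working complex I lacks, so its low value cannot be read as its mRNA level. UQCRHL is a near-identical retrocopy of UQCRH, and its reads are uncertain for that reason.

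**Figure D1:**
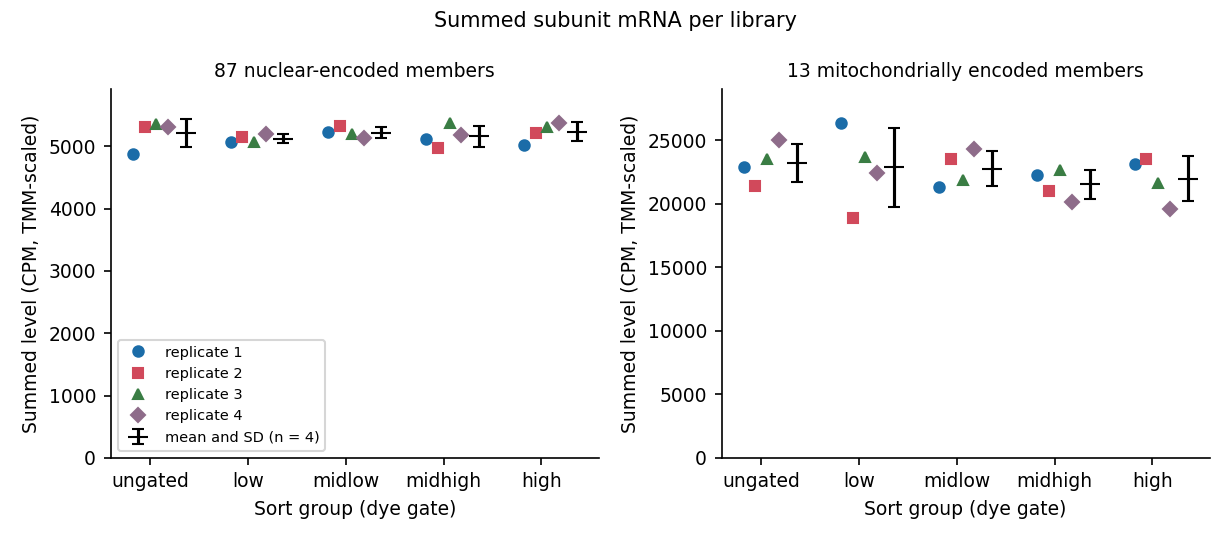
Summed CPM of the nuclear and of the mitochondrial members in each library, by sort gate (ungated, low, midlow, midhigh and high dye, n = 4 each), with a symbol for each replicate number and bars for mean and SD. The nuclear sums of the 20 sort libraries lie between 4883 and 5380 CPM and the gates overlap in both panels.

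Summed over all nuclear or all mitochondrial genes, the subunit mRNAs overlapped across the gates. The nuclear genes together made up 5214 ± 222 CPM in ungated cells, 5122 ± 67.8 in low, 5218 ± 82.3 in midlow, 5160 ± 168 in midhigh and 5232 ± 155 CPM in high dye cells (SD, n = 4 each). The 13 mitochondrial mRNAs took 2.32 ± 0.108% of gene counts in ungated cells, 2.27 ± 0.262% in low, 2.24 ± 0.158% in midlow, 2.15 ± 0.0923% in midhigh and 2.21 ± 0.204% in high dye cells. The ranges of all 5 groups overlap on both measures. The widest gaps between means, high against low dye cells for the nuclear sum and midhigh dye against ungated cells for the mitochondrial share, exceed the SD of at least 1 of the groups compared. The nuclear genes of complex IV summed to 798 ± 23.2 CPM in high dye cells and 744 ± 19.0 CPM in low dye cells, with 775 ± 17.0 CPM in ungated cells between them. The high dye range of 770.6 to 825.0 CPM and the low dye range of 720.7 to 767.3 CPM did not overlap. The ungated range of 751.4 to 791.9 CPM overlapped both. No p-value is given for a sum over genes chosen as a list.

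Comparing high dye with low dye cells addresses how expression differs between the ends of the sort. With edgeR's quasi-likelihood test, 1 of the 91 tested subunit genes changed at a Benjamini-Hochberg adjusted p under 0.05, beside 17.8% of all 14592 genes tested. It was higher, as were 9.39% of all genes, while 0 subunit genes and 8.37% of all genes were lower. A further look at unadjusted p-values under 0.05 gave 17 subunit genes, beside 4705 of the 14592. DESeq2 called 4 subunit genes, beside 2931 of all genes. The fold changes were small. The median absolute log2 fold change was 0.11 over the subunit genes and 0.21 over all genes, and the median standard error was 0.09 and 0.14 on the same log2 scale. The 78 nuclear genes had a median log2 fold change of 0.09 with 57 positive, and the 13 mitochondrial genes one of -0.01 with 5 positive, beside 0.01 for all genes. The mitochondrial median turned on single libraries: it was -0.12 with 2 positive without low dye replicate 2, 0.04 with 9 positive without low dye replicate 1 and 0.01 with 9 positive without high dye replicate 4.

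The gene that changed was ATP5PD, the d subunit of the peripheral stalk that holds the ATP synthase head still (ENSG00000167863, chr17:75038863-75046985, minus strand, GRCh38). It had 63.4, 65.5, 69.3 and 72.7 CPM in the 4 high dye libraries, against 50.9, 55.3, 56.0 and 60.7 CPM in the low dye ones. All 4 high dye values lay above all 4 low dye values. The log2 fold change was 0.29 ± 0.07 (SE), with an adjusted p of 0.00965 in the edgeR fit. Without the low-count filter 0 subunit genes were called, and the log2 fold change of ATP5PD was 0.28.

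Libraries with the same replicate number deviated together, so the fit was also made with the replicate number as a block. It called 14 subunit genes higher and 2 lower in high dye cells, 17.6% of the 91, beside 37.2% of all genes (19.8% higher and 17.4% lower). The shares of both fits lie below the background, so the number of calls is not itself a result about oxidative phosphorylation. Of 16 calls in all, the count was 6 without high dye replicate 1, 10 without high dye replicate 2, 7 without high dye replicate 3 and 4 without low dye replicate 3. ATP5PD and COX5B were called in all 8 such fits. NDUFA1 and ATP5F1E were called in 6 of them, NDUFB2, NDUFB10 and COX7B in 5, NDUFA2 and MT-ND6 in 4, NDUFB7 and COX7A2 in 3, UQCRFS1 and ATP5MK in 2, and NDUFA10, COX7A2L and NDUFV3 in 1.

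In complex I, the 7 nuclear core subunits, which hold the flavin, the iron-sulfur clusters and part of the quinone site, had a median log2 fold change of -0.07, and none was called with the block. The 28 accessory subunits, which surround the core and have no catalytic centre, had a median of 0.10. With the block 6 of them were called higher and 1 lower, beside 37.2% of all genes called in the same fit. Their called share lay below that of all genes, so the count is not itself a result about the accessory subunits. The highest of these subunits was NDUFA1, a small membrane-arm subunit on the X chromosome (ENSG00000125356, chrX:119871487-119876662, plus strand). It had 29.5, 30.8, 30.2 and 31.7 CPM in high dye cells, against 24.9, 26.4, 21.6 and 26.1 CPM in low dye cells. The groups did not overlap, and its log2 fold change was 0.31 ± 0.11 (SE), with an adjusted p of 0.0533 without and 0.0194 with the block in edgeR. Of its transcript 44.5% overlaps RNF113A. NDUFB7, a subunit on the intermembrane space side, had 41.9, 44.1, 44.5 and 50.9 CPM in high dye cells, against 41.0, 40.2, 36.3 and 35.5 CPM in low dye cells. Its groups were also apart, by less than 1 CPM at the nearest pair (adjusted p 0.101 without and 0.0357 with the block, edgeR). NDUFA2 and NDUFB2 each had a log2 fold change of 0.25 and were called with the block (adjusted p 0.0219 and 0.0151, edgeR). NDUFA10, a large accessory subunit related to nucleoside kinases, was the one called lower, with 86.4, 85.8, 90.8 and 103 CPM in high dye cells, against 88.1, 103, 98.2 and 116 CPM in low dye cells. Its groups overlapped, and it was lower in each of the 4 replicate pairs (adjusted p 0.349 without and 0.0419 with the block, edgeR), and the call held only without low dye replicate 1. The core subunit NDUFS1 had 148 to 192 CPM in high dye cells and 162 to 210 CPM in low dye cells, with an adjusted p of 0.0761 with the block in edgeR.

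In complex II, which also works in the citric acid cycle, none of the 4 genes passed the test in either fit. SDHA, the flavoprotein that oxidises succinate, had 94.0, 104, 89.3 and 109 CPM in high dye cells, against 109, 118, 110 and 108 CPM in low dye cells, and the groups overlapped. In complex III, the Rieske iron-sulfur protein UQCRFS1 (ENSG00000169021, chr19:29205321-29213541, minus strand) was the one gene called, and only with the block. It had 45.9, 44.9, 51.7 and 55.3 CPM in high dye cells, against 53.0, 52.6, 57.5 and 56.3 CPM in low dye cells. The values were lower in each of the 4 replicate pairs, while the groups overlapped. Its log2 fold change with the block was -0.15 ± 0.05 (SE), adjusted p 0.0275 in edgeR, against 0.229 without it. The block call held without high dye replicate 4 or low dye replicate 4, and was lost without any other of the 8 libraries. The core protein UQCRC1 had 146 to 177 CPM in high dye cells and 142 to 183 CPM in low dye cells, with a log2 fold change of 0.01.

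Complex IV had the highest median of the nuclear sets, 0.15 on the log2 scale, with 11 of its 12 tested nuclear genes positive and 4 called higher with the block. That is 33.3% of the 12, beside 37.2% of all genes in the same fit. COX5B, a zinc-binding subunit on the matrix side (ENSG00000135940, chr2:97646040-97648383, plus strand), had 60.0, 52.9, 53.7 and 45.2 CPM in high dye cells, against 47.2, 48.9, 44.3 and 38.02 CPM in low dye cells. The groups overlapped, yet the high dye library exceeded the low dye one of the same number in all 4 pairs. The log2 fold change was 0.25 ± 0.10 (SE), with an adjusted p of 0.0881 without and 0.00518 with the block in edgeR. The other 3 were COX7B, COX7A2 and COX7A2L, the last a factor that joins complexes III and IV into supercomplexes. COX4I1, the largest nuclear-encoded subunit, had near-equal values in the gates. It had 150, 152, 148 and 154 CPM in high dye cells, against 148, 148, 150 and 152 CPM in low dye cells. Its log2 fold change was 0.02 ± 0.06 (SE). COX5A, another subunit on the matrix side, had 64.0 to 66.9 CPM in high dye cells and 58.1 to 63.98 CPM in low dye cells, with no overlap and an adjusted p of 0.296 in edgeR.

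In complex V, the block fit called ATP5PD, ATP5F1E and ATP5MK higher, 16.7% of its 18 tested nuclear genes, beside 37.2% of all genes. ATP5F1E, the epsilon subunit of the central stalk, had 111, 104, 107 and 103 CPM in high dye cells, against 98.2, 93.9, 85.2 and 95.2 CPM in low dye cells, with no overlap. Its log2 fold change was 0.20 ± 0.07 (SE), adjusted p 0.0507 without and 0.0191 with the block in edgeR. ATP5MK, a small protein that helps hold synthase dimers together, had a log2 fold change of 0.21 ± 0.08 (SE) and an adjusted p of 0.0399 with the block in edgeR. The catalytic subunits were not among them. ATP5F1B had 539 to 670 CPM in high dye cells and 578 to 645 CPM in low dye cells (log2 fold change -0.003 ± 0.09, SE), and ATP5F1A had 419 to 480 CPM in high dye cells and 461 to 484 CPM in low dye cells.

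**Figure D2:**
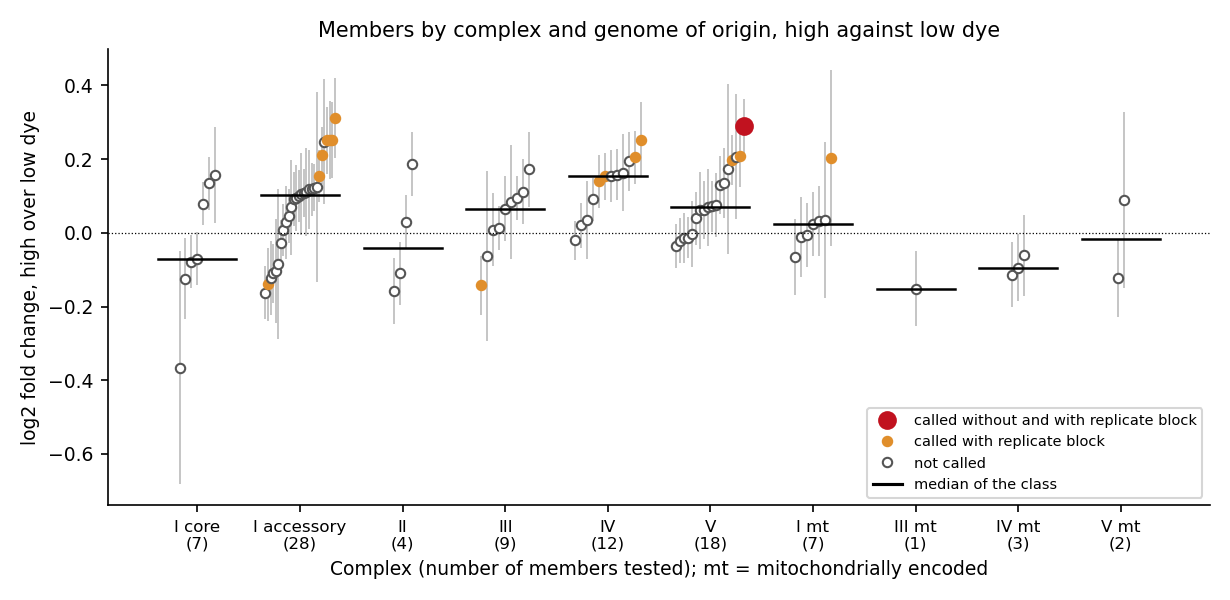
Log2 fold change of each tested subunit gene, high dye over low dye cells, by complex and genome of origin, with grey bars for the SE, orange points for genes called with the replicate block, a red point for ATP5PD, called in both fits, and a line at the median of each set. The nuclear genes of complex IV sit highest as a set (median 0.15), the nuclear core of complex I lies at -0.07, and NDUFV2 at -0.37 rests on few unshared reads.

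The ordered gates gave a second view of the same cells. A straight line through the 16 gated libraries, with the gates taken as equal steps, was fitted with edgeR. Of the 91 genes, 10 rose with dye and 0 fell (11.0%), beside 26.3% of all 14419 genes tested (14.0% rising and 12.3% falling). The risers were NDUFA1, ATP5PD, COX5B, NDUFB7, NDUFB2, NDUFB10, COX6B1, ATP5F1E, ATP5MK and COX7B. Without the low-count filter 2 were called, ATP5PD and NDUFA1. The count of 10 moved by over 1.5 times without any one of high dye replicates 1, 2 and 3 (5, 5 and 4 genes), low dye replicates 3 and 4 (3 and 5), midlow dye replicates 3 and 4 (5 and 6) and midhigh dye replicates 1 and 3 (6 and 5). ATP5PD, NDUFA1 and NDUFB10 were called without each of the 16 libraries in turn.

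ATP5PD averaged 55.7 ± 4.00 CPM in low, 60.0 ± 4.89 in midlow, 61.5 ± 3.23 in midhigh and 67.7 ± 4.14 CPM in high dye cells (SD, n = 4 each). Its log2 slope was 0.09 ± 0.02 per gate (SE, adjusted p 0.00615, edgeR), and neighbouring gates overlapped. NDUFA1 averaged 24.7 ± 2.22, 25.5 ± 1.42, 27.7 ± 4.31 and 30.6 ± 0.916 CPM in the low, midlow, midhigh and high gates, with a log2 slope of 0.11 ± 0.03 per gate (SE, adjusted p 0.014, edgeR). COX5B averaged 44.6 ± 4.78, 47.0 ± 4.42, 49.6 ± 4.53 and 52.9 ± 6.07 CPM over the same gates, with a log2 slope of 0.08 ± 0.03 (SE, adjusted p 0.0446, edgeR). For all 3 genes the 4 gate means stood in the order of the gates.

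With the block, 19 genes rose and 5 fell over the gates, 26.4% of the 91, beside 43.8% of all genes (23.1% rising and 20.7% falling). The 5 that fell were NDUFB6, NDUFB3, NDUFS1, UQCRFS1 and NDUFA10, with log2 slopes between -0.06 and -0.04 per gate. NDUFB6, an accessory subunit of the membrane arm, averaged 43.0 ± 3.41 CPM in low, 43.2 ± 3.63 in midlow, 39.4 ± 1.90 in midhigh and 38.2 ± 1.49 CPM in high dye cells (adjusted p 0.0351, edgeR with the block). The total was 14 without high dye replicate 1, 11 without high dye replicate 3 and 12 without low dye replicate 3. The genes ATP5F1E, ATP5PD, COX5B, COX6B1, NDUFA1 and NDUFB10 were called in all 16 fits that left out a library.

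**Figure D3:**
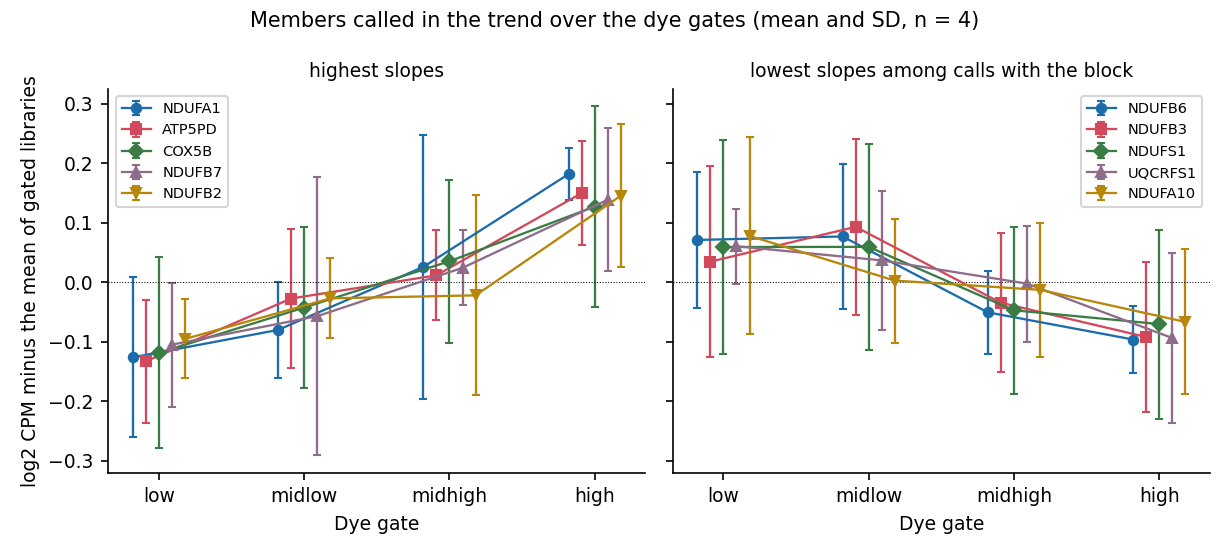
Log2 CPM minus the mean of the 16 gated libraries, by gate from low to high dye, as mean and SD (n = 4 libraries), for the 5 genes with the highest slopes (left) and the 5 that fell with the replicate block (right). The left genes are lowest in low and highest in high dye cells, the right ones lie lower in midhigh and high dye cells, and the SDs of neighbouring gates overlap.

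Promoter sequence is shown for 4 genes whose slopes marked the ends of this trend, the 3 highest and the lowest among those called with the block and whose RefSeq start lay within 50 bases of the annotated one. Each line gives the 250 bases before the RefSeq start (RefSeq, GRCh38.p14), read 5′ to 3′ on the gene's strand. The positions are chr17:75046970-75047219 on the minus strand for ATP5PD, chr2:97645812-97646061 on the plus strand for COX5B, chr19:14572067-14572316 on the minus strand for NDUFB7 and chr9:32573160-32573409 on the minus strand for NDUFB6. Capitals mark matches, on either strand, to 1 of 5 motifs. The first is CCGGAAG, the core bound by GABPA and other ETS factors. The second is the 10-base consensus of NRF1 with 1 free base. The third is AAGATGGCG, the core of YY1 sites. The fourth is GGGCGG, the box bound by SP1, and the fifth the TATA box letters TATAAA.
ATP5PD: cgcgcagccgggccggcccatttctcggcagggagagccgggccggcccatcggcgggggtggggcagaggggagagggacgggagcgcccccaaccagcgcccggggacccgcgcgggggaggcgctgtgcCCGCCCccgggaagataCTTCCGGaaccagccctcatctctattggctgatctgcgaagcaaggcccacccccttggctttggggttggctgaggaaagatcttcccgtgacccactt
COX5B: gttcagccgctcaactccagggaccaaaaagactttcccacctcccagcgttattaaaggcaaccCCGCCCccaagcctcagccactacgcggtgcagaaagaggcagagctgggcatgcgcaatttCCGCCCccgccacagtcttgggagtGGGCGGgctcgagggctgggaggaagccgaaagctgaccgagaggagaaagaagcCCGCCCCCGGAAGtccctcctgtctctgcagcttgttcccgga
NDUFB7: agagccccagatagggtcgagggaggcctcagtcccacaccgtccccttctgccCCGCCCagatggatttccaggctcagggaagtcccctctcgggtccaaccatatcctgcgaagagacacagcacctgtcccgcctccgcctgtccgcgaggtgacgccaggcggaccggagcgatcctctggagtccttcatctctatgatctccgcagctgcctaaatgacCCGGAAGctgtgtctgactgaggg
NDUFB6: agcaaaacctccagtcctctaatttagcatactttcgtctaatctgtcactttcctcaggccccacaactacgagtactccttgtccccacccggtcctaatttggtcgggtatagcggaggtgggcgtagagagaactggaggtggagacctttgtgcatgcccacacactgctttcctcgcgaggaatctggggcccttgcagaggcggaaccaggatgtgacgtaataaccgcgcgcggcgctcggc

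The 3 genes that rose each held the ETS letters, with the first base at -101 in ATP5PD, -37 in COX5B and -24 in NDUFB7, and each held SP1 letters. In COX5B one SP1 match runs directly into the ETS match. NDUFB6 held none of the 5 motifs in this window. It does not stand for the falling genes: of the 5 that fell with the block, 4 held SP1 letters, 1 the ETS letters and 1 those of NRF1. Promoters were found in the RefSeq table for 69 of the 87 nuclear genes. The ETS letters were in 17 of the 69 (24.6%), beside 8.82% of all 27305 promoters of the same length, and the NRF1 letters in 15 (21.7%), beside 5.53%. YY1 letters were in 1 (1.45%), beside 0.641%, SP1 letters in 39 (56.5%), beside 42.3%, and TATAAA in 7 (10.1%), beside 11.1%. Of the 16 nuclear genes with a promoter that rose over the gates with the block, 11 held SP1 letters, 6 the ETS letters and 1 those of NRF1. GABPA and NRF1 are textbook regulators of nuclear respiratory genes. A match describes the letters and not a bound site.

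The direction of the nuclear genes went with the length of the coding sequence. The 47 genes of at most 450 nt had a median log2 fold change of 0.11 in high over low dye cells, with 39 positive (83.0%) and 11 called higher and 0 lower with the block. The 21 genes over 450 and up to 900 nt had a median of 0.09, with 2 called higher and 1 lower, and the 10 genes over 900 nt one of -0.02, with 0 called higher and 1 lower. Among all protein-coding genes the same length classes had medians of 0.07, 0.04 and 0.01. Of those of at most 450 nt 60.6% were positive. The block called 24.9% of them higher and 14.6% lower, beside 23.4% and 0.0% of the 47 subunit genes. The share called higher was thus near that of all short genes. In the next class it was 23.8%, beside 9.52% of the 21, and in the longest 22.0%, beside 0.0% of the 10. Spearman's rho between coding length and log2 fold change was -0.43 over the 78 nuclear subunit genes and -0.04 over 12120 protein-coding genes. These points share the same 8 libraries and are a description across genes. Most accessory subunits are short, so coding length and the role of the subunit cannot be told apart here.

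**Figure D4:**
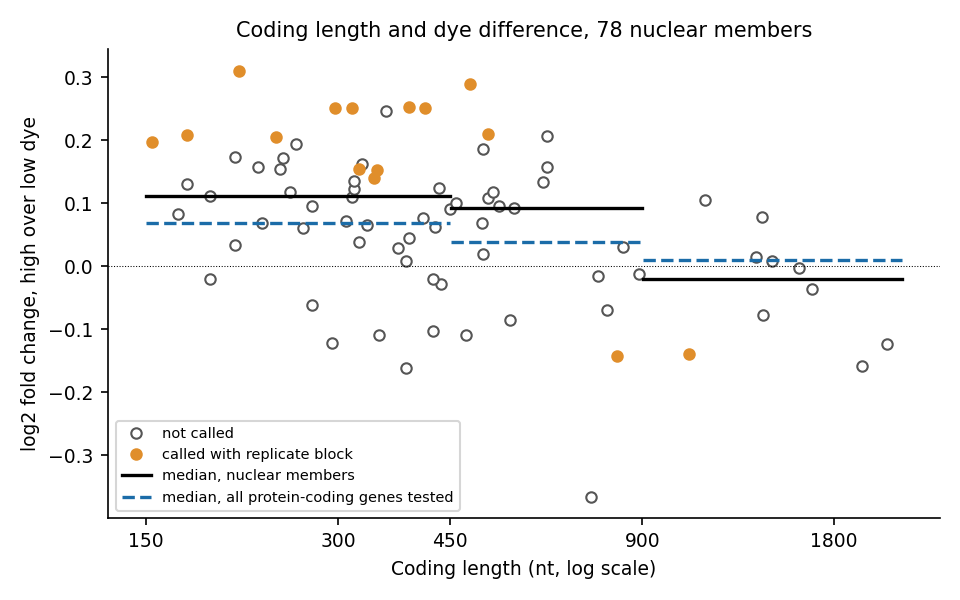
Log2 fold change, high dye over low dye cells, against coding length in nt (log axis) for the 78 tested nuclear subunit genes, with orange points for genes called with the replicate block, and medians of the 3 length classes for these genes (black) and for all protein-coding genes (dashed blue). Short genes lie mostly above 0 (39 of 47 at up to 450 nt) and long ones on both sides of it (4 of 10 above 0).

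The other sort comparisons called no subunit gene. Between midhigh and midlow dye cells, edgeR called 0 of 91 (2 at an unadjusted p under 0.05, DESeq2 0), beside 0.0% of all genes. High dye against ungated cells gave 0 (5 unadjusted, DESeq2 0), beside 0.00685% of all genes, and low dye against ungated cells 0 (2 unadjusted, DESeq2 0), beside 0.0754%. Over all genes 1892, 1543 and 1897 had an unadjusted p under 0.05 in the 3 comparisons, and DESeq2 called 122, 19 and 188. With the block the 3 comparisons called 0 subunit genes as well, beside 10.8%, 7.59% and 10.8% of all genes. The median standard error of a subunit gene was 0.09 on the log2 scale in each. The 13 mitochondrial genes all had negative log2 fold changes in midhigh over midlow dye cells, with a median of -0.06, and 12 of 13 did in high dye over ungated cells, with a median of -0.07. None of these genes passed the test. These counts turned on single libraries, while the medians stayed negative. Without midlow dye replicate 4, 4 were positive in the first comparison (median -0.04). Without ungated replicate 4, 3 were positive in the second (median -0.03).

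Some mitochondrial mRNAs differed more by replicate number than by gate, and MT-ND6 was the one called between high and low dye cells, with the block only. The share of the variance of log2 CPM over the 20 sort libraries that went with the replicate number was 81.0% for MT-ND6, 73.6% for MT-ATP8 and 71.7% for MT-ND5, beside 7.2%, 4.1% and 3.7% for the sort group. Over all genes the median shares were 33.0% for the replicate number and 24.8% for the group. MT-ND6, a membrane subunit of complex I, averaged 372 ± 34.0 CPM in replicate 1, 275 ± 45.5 in replicate 2, 444 ± 15.7 in replicate 3 and 479 ± 53.2 CPM in replicate 4 (SD, n = 5 sort groups). MT-ND5, its neighbour on the other strand, averaged 1772, 1330, 2055 and 2037 CPM in the same order. Replicate 2 was the lowest of the 4 in every sort group for both genes. MT-ND6 (M:14149-14673, minus strand) adjoins MT-ND5 (M:12337-14148, plus strand), and the library kit does not keep the strand, so reads of either strand at the MT-ND6 position count for it.

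Within replicate numbers, MT-ND6 was higher in high dye cells in all 4 pairs. It had 416, 316, 440 and 439 CPM in high dye cells, against 354, 198, 437 and 419 CPM in low dye cells. The groups overlapped, and the pairs of replicates 3 and 4 differed by less than the SD of either gate (58.6 CPM at high dye, 109 CPM at low dye). With the block its log2 fold change was 0.25 ± 0.09 (SE, adjusted p 0.0338, edgeR), and without it 0.20 ± 0.24 (adjusted p 0.596, edgeR). The call was lost in 4 of the 8 fits that left out a library, those without high dye replicates 1 or 2 and without low dye replicates 2 or 4.

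MT-ATP8, a short subunit of the ATP synthase membrane part (M:8366-8572, plus strand), went the other way by replicate number. It averaged 154 CPM in replicate 1, 251 in replicate 2, 163 in replicate 3 and 204 CPM in replicate 4, and replicate 2 was the highest in every sort group. Between gates it had 158, 264, 159 and 238 CPM in high dye cells, against 178, 236, 160 and 201 CPM in low dye cells, which overlap. Its 207-nt reference sequence is shown because 46 of these nt, in capitals, are also the start of MT-ATP6, and reads confined to them are counted for neither gene.
MT-ATP8: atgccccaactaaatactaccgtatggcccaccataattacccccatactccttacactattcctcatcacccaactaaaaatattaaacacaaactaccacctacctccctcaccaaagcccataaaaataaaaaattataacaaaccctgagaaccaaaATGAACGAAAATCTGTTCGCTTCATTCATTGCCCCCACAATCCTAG

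Reads for MT-ATP8 can therefore come from the remaining 161 nt. Whether fragments that cross the boundary are counted depends on the counting mode, which is not stated here. For MT-CO2 and MT-CO3 of complex IV the replicate number went with 17.9% and 9.1% of the variance, and MT-CO1 averaged 5623, 5208, 5251 and 4649 CPM over replicates 1 to 4. The spread was smallest for nuclear genes such as COX7C and COX4I1, with SDs of 0.05 and 0.06 log2 units over the 20 sort libraries, beside a median of 0.12 for nuclear subunit genes, 0.15 for mitochondrial ones and 0.21 for all genes.

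**Figure D5:**
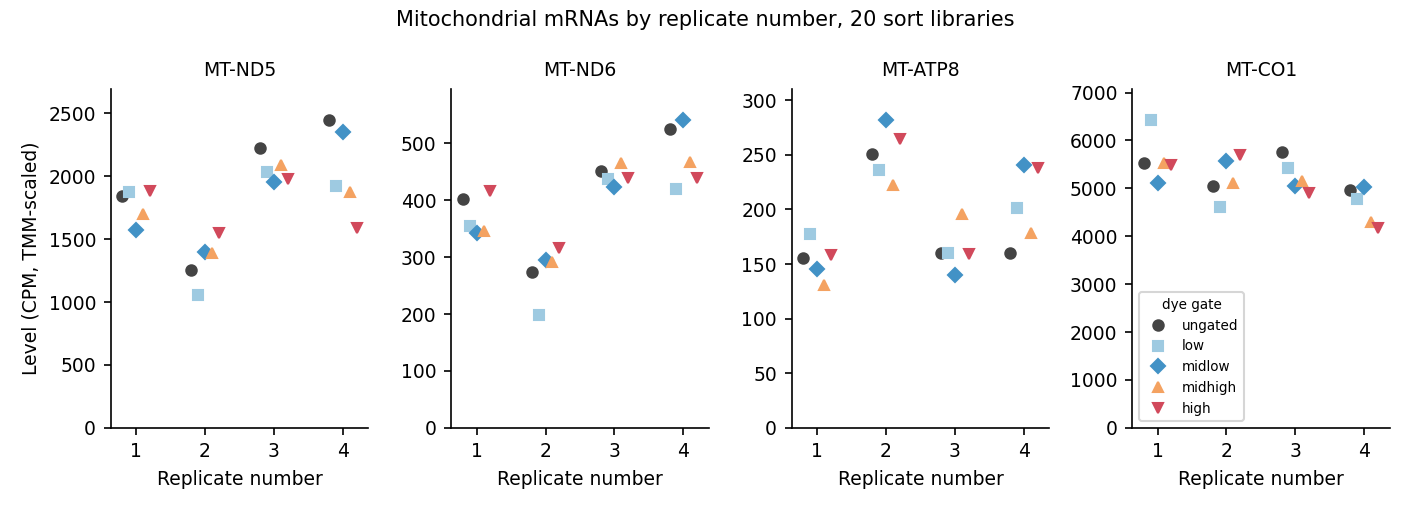
CPM of mitochondrial genes in the 20 sort libraries, grouped by replicate number, with a symbol for each of the 5 sort groups. MT-ND6 and MT-ND5 are lowest in replicate 2 and MT-ATP8 is highest there, while the means of MT-CO1 lie between 4649 and 5623 CPM.

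In the drug set, LSD1 inhibition was compared with DMSO and no drug pooled as the controls, since neither control has 2 libraries. EdgeR called 0 of the 91 subunit genes (0 at an unadjusted p under 0.05, DESeq2 0), beside 0.114% of all 14002 genes. Over all genes 950 had an unadjusted p under 0.05, and DESeq2 called 122. The median log2 fold change was 0.04 for nuclear and 0.03 for mitochondrial genes, beside -0.01 for all genes, and the median standard error of a subunit gene was 0.12. These medians turned on single libraries. The mitochondrial one was -0.14 without LSD1 inhibition replicate 2, 0.21 without LSD1 inhibition replicate 1, -0.09 without DMSO and 0.18 without the no drug library. The nuclear one was -0.02 without the no drug library and 0.08 without DMSO. The nuclear genes summed to 5959 and 5728 CPM under LSD1 inhibition, against 5844 CPM with DMSO and 5418 CPM with no drug. The mitochondrial mRNAs took 2.05% and 2.52% of gene counts under LSD1 inhibition, against 2.01% with DMSO and 2.47% with no drug. Among these 4 libraries the mitochondrial share was lower in the 2 numbered replicate 1 (LSD1 inhibition and DMSO) and higher in the 2 numbered replicate 2. ATP5IF1, the protein that blocks ATP hydrolysis by the synthase, had 77.8 and 90.8 CPM under LSD1 inhibition, against 71.1 CPM with DMSO and 71.5 CPM with no drug. MT-ATP8 had 164 and 170 CPM under LSD1 inhibition, against 232 CPM with DMSO and 170 CPM with no drug. Its log2 fold change was -0.26 ± 0.15 (SE, adjusted p 0.895, edgeR).

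DOT1L inhibition and DMSO had 1 library each, so there is no test and no replicate check. Of the 91 genes 1 lay past 1.5-fold, beside 13.9% of all 14540 genes compared (10.2% higher, 3.62% lower). This was ATP5ME, the e subunit of the synthase membrane part, with 3.64 CPM under DOT1L inhibition and 6.02 CPM with DMSO (counting intervals of 2.80 to 4.65 and 4.89 to 7.34 CPM, exact Poisson at 95%, covering counting error only). About 49.9% of its transcript is shared with another gene, and with the mean of DMSO and no drug as the control it lay inside the limit. Just inside the limit of 0.58 were NDUFA9, MT-ATP8 and NDUFB8, with log2 ratios of -0.56, -0.56 and -0.56. The highest ratios were 0.52 for MT-ND2 and 0.47 for MT-CYB. MT-ND2 had 1302 CPM under DOT1L inhibition, against 911 CPM with DMSO and 1440 CPM with no drug, so the no drug library stood further from DMSO than the DOT1L one did. The mitochondrial mRNAs took 2.5% of gene counts under DOT1L inhibition, against 2.01% with DMSO and 2.47% with no drug.

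Genes outside the name pattern, most of them not subunits, were examined as lists in high against low dye cells with the same edgeR fit. Of 49 tested assembly factors 3 rose and 3 fell (12.2%, beside 17.8% of all genes), with a median log2 fold change of 0.00. With the replicate block it was 4 and 9. NDUFAF8 and TIMMDC1, both factors for complex I, rose with log2 fold changes of 0.40 ± 0.08 and 0.21 ± 0.06 (SE), as did the complex III factor UQCC1 with 0.41 ± 0.13. The complex I factor FOXRED1 fell with -0.65 ± 0.14, and SDHAF3 and TTC19, factors for complexes II and III, fell with -0.45 ± 0.12 and -0.24 ± 0.06. Of 29 genes listed as electron carriers and transporters 0 rose and 2 fell (6.9%). The 2 were the ADP/ATP carrier SLC25A5 (-0.38 ± 0.12) and PDSS1 (-0.37 ± 0.11), which makes the tail of coenzyme Q. With the block 4 rose and 6 fell (34.5%, beside 37.2% of all genes). This list also held the complex I subunit NDUFAB1, whose symbol lies outside the name pattern, and AOX1, which is not a respiratory carrier. Cytochrome c (CYCS) and the complex III subunit CYC1, also in this list because its symbol lies outside the pattern, had log2 fold changes of 0.04 and -0.03.

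Of 34 genes that maintain or transcribe mitochondrial DNA, 3 rose and 6 fell (26.5%, beside 17.8% of all genes), with a median of -0.09. With the block 3 rose and 8 fell (32.4%, beside 37.2% of all genes). TFAM, which packages mitochondrial DNA and starts its transcription, fell by 0.37 on the log2 scale (SE 0.08, adjusted p 0.00485, edgeR). RRM2B, a p53-induced ribonucleotide reductase subunit that supplies nucleotides outside S phase, rose by 1.29 ± 0.21 (SE, adjusted p 0.000958, edgeR). Of 20 regulators of mitochondrial biogenesis 0 rose and 5 fell, among them NRF1 (-0.40 ± 0.11) and PPRC1 (-0.35 ± 0.07), a coactivator of the PGC-1 family. With the block 3 of these regulators rose and 7 fell. The mitochondrial ribosome had 1 gene higher and 3 lower of 78 (5.13%), and the import machinery 1 and 4 of 23 (21.7%). The citric acid cycle had 0 and 2 of 21 (9.52%), and the chaperones and proteases 0 and 1 of 19 (5.26%). With the block these were 2 and 12 for the ribosome, 2 and 6 for import, 3 and 7 for the citric acid cycle and 2 and 5 for the chaperones and proteases, beside the 37.2% of all genes called in that fit. Glycolysis had 4 higher and 3 lower of 24, and mitophagy and dynamics 3 and 0 of 12, against 6 and 3, and 5 and 2, with the block. Of 13 oxidant defence genes 4 rose (30.8%, beside 9.39% of all genes) and 0 fell. The 4 were HMOX1 (2.03 ± 0.57), PRDX5 (0.56 ± 0.11), NQO1 (0.54 ± 0.15) and GPX4 (0.37 ± 0.08). With the block 7 of the 13 rose (53.8%, beside 19.8% of all genes) and 0 fell. In the fit without the block 21 of 22 S phase genes and 10 of 14 G2 and mitosis genes fell (22 and 12 with the block). No list was tested as a set.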

How the data were processed

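Poly(A)-selected RNA from hiF-T cells was sequenced after preparation with an unstranded kit, per the labels' protocols. STAR, HTSeq and the hg38/GRCh38 build are named per the submitters' processing notes, without versions. The deposited files hold whole-number counts per Ensembl gene, made by the authors with no normalization. No-feature reads (4.33 to 7.72% of reads listed) and other summary lines stayed out of library sizes. Identifiers were named from the reference symbol table (57532 matched) and GENCODE 29 (58039 matched).

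Tests used the quasi-likelihood method of edgeR 4.0.16, run in R 4.3.3, on these counts (TMM scaling, filterByExpr with a minimum count of 10 and total of 15, Benjamini-Hochberg over all genes, threshold 0.05). The 20 sort libraries shared 1 fit, and the trend used the 16 gated ones. Standard errors are the log2 fold change over the square root of F. The DOT1L ratio used a prior count of 2. CPM are scaled by TMM over 25 libraries, so CPM depend on this scaling. The fits were tested on simulated data. Same-numbered sort libraries deviated together: all 40 pairs had a correlation over 0.1 (0.146 to 0.618), so the replicate numbers pair the sort samples. Replicates differed by more than sampling noise in each group that had more than 1 library. Alternatives were DESeq2 1.42.0, RLE scaling, no filter, other sample sets and leaving out libraries.

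Named genes are 17 fixed nuclear subunits, the 13 mitochondrial ones and, per fit, the 5 highest and 5 lowest called; other names were chosen after their values were seen. Members and lists were chosen with earlier results of these data known.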

Additional observations from a re-analysis of the deposited data

Results flagged for a closer look

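In 185 groups of 4 sort libraries, 1 library was screened for lying far from the other 3. The groups were the 30 named genes, without COX4I2 and COX7A1, which failed the low-count filter, and the sums per complex, in 5 sort groups. Chance flags about 1 in 20 groups, and 11 were found, some of them from the same library. MT-ATP8 in ungated replicate 2 had 251 CPM, with 160 CPM in the nearest library. MT-CYB, the mitochondrial subunit of complex III and therefore that complex's mitochondrial sum as well, had 2218 CPM in ungated replicate 4, with 1794 CPM in the nearest. In low dye replicate 2, COX6A1 had 10.1 CPM with 11.0 CPM in the nearest, MT-ND5 had 1054 CPM with 1872 CPM in the nearest, and the nuclear sum of complex II was 269 CPM with 255 CPM in the nearest. The mitochondrial sum of complex V in low dye replicate 1 was 2286 CPM, with 2004 CPM in the nearest. In the midlow dye group, ATP5MC1 had 36.8 CPM in replicate 3 with 39.1 CPM in the nearest, MT-ND1 had 2068 CPM in replicate 4 with 1741 CPM in the nearest, and the nuclear sum of complex I was 1524 CPM in replicate 2 with 1456 CPM in the nearest. ATP5IF1 had 51.7 CPM in high dye replicate 1, with 64.6 CPM in the nearest. The cause of these distances was not tested.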

How the results depend on the processing

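For high against low dye cells, the count of subunit genes called was 1 as reported, 4 with DESeq2, 0 without the low-count filter, 2 with only the 8 compared libraries, 16 with the replicate block, and 1 to 5 when 1 library was left out. With the block and 1 library left out, an alternative chosen after seeing the data, it was 4 to 15. For the trend over the gates it was 10 as reported, 2 without the filter, 24 with the replicate block, 3 to 10 without 1 library and 11 to 24 without 1 library in the block fit. Over all genes the block raised the calls to 5434, against 2591 without it, for high against low dye cells, and to 6315, against 3785, for the trend. For LSD1 inhibition the block fit called 7 subunit genes, against 0 without it, beside 2242 of all genes. The called share of the subunit genes lay below that of all genes. The count is therefore not itself a result about oxidative phosphorylation. ATP5IF1, ATP5MC1, UQCR10, ATP5F1A, COX6B1 and NDUFB1 were called higher and MT-ATP8 lower. MT-ATP8 had 163.8 CPM under LSD1 inhibition against 231.6 CPM with DMSO in replicate 1. In replicate 2 it had 170.1 CPM against 170.3 CPM with no drug. In the drug set the replicate number is shared by only 2 pairs of libraries, with a correlation of 0.557. The control of replicate 1 was DMSO and that of replicate 2 no drug. Among the controls, replicate number and type of control therefore cannot be told apart. For DOT1L inhibition the count past 1.5-fold was 0, against 1, with the mean of DMSO and no drug as the control. The mean mitochondrial share was 1.94% with unassigned reads in the denominator, against 2.24%. Of 4164 values of single genes under these alternatives, 0 called values reversed, 246 lost and 77 gained a call. In the other 3 sort comparisons the block called 0 subunit genes as before, while over all genes it called 1579, against 0, for midhigh against midlow dye cells, 1107, against 1, for high dye against ungated cells and 1575, against 11, for low dye against ungated cells. No change of scaling moved the median of all genes by 0.1 log2 units. The cause of these shifts was not tested.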

Other observations

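The nuclear subunit genes took 0.547 to 0.614% of gene counts in the 5 libraries of the drug set and 0.486 to 0.541% in the 20 libraries of the sort set. The ranges do not touch. No control group is shared by the sets, so no comparison between them was made.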
